A study of Mus musculus with 10 samples.

Results

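Enzymes that build chondroitin sulfate chains and place sulfate on them were examined in lineage-traced single cells of the mouse hind limb. The 10 genes are *Fam20b*, *Csgalnact1*, *Csgalnact2*, *Chsy1*, *Chpf*, *Chpf2*, *Chst11*, *Chst12*, *Chst3* and *Chst5*, of 29183 genes listed for both lineages, and they were chosen by name. Each was followed by plate, by lineage and by cell group. *Grem1*-lineage cells were divided by their own transcripts into 414 articular-marker cells, in which *Clu*, *Cilp* and *1500015O10Rik* together gave more unique molecular identifiers (UMIs, each standing for 1 counted cDNA molecule) than *Cnmd*, and 270 Cnmd-side cells, in which they did not. None of the 10 enzymes took part in that division.

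Cells of the *Grem1* lineage came from *Grem1-TdT* mice (*Grem1-creERT; R26-LSL-TdTomato*, C57BL/6) that ate tamoxifen chow for 2 weeks from 5 to 6 weeks of age. Articular cartilage (AC) and growth plate (GP) were excised, digested and sorted for live TdTomato-positive cells, and the labels do not say which plate holds which tissue. *Lepr*-lineage cells came from whole bones of age paired *LepR-TdT* (Lepr-TdT) mice of the same strain, whose Cre is constitutive, and were also sorted as negative for CD45, Ter119 and CD31. One label field gives tamoxifen to both lines and another to *Grem1-TdT* mice alone. Each Cre driver limits its group to cells that use, or descend from cells that used, that promoter. Tissue, digestion, sort and lineage differed together between the lineages, and cannot be told apart. How many mice stand behind a plate is not given, so p-values measure the spread between plates, which may be technical.

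Of the wells, 684 of 768 on 8 *Grem1*-lineage plates and 160 of 162 on 2 *Lepr*-lineage plates had at least 350 detected genes and were kept. Detected genes were counted over the genes listed for each lineage, 29183 for *Grem1* and 50508 for *Lepr*, a looser limit for *Lepr*-lineage cells. All 96 well barcodes recur on more than 1 plate, as the plate index separates the libraries. Plate sums held 51229 to 78395 UMIs for articular-marker cells, 57206 to 106289 for Cnmd-side cells and 59981 to 64310 for *Lepr*-lineage cells over the shared genes, which take 40.9% of all *Lepr*-lineage UMIs. The median cell had 1217, 2218.5 and 505 UMIs, respectively. All 10 listed chondrocyte markers were detected in both *Grem1*-lineage groups, and their summed level was 185944 to 227040 CPM (UMIs of a gene per 1000000 UMIs of the shared genes) in articular-marker and 148598 to 178700.3 CPM in Cnmd-side cells. The higher articular-marker sum rests on *Cytl1*, at a mean of 140278 against 23131 CPM, and *Chad* (29826 against 10933) and *Comp* (5576 against 4659) were also higher. The other listed markers were lower: *Col2a1* (14362 against 69601 CPM), *Acan*, *Col9a1*, *Col11a1*, *3110079O15Rik*, *Epyc* and *Cnmd*, which took part in the division. In *Lepr*-lineage cells the summed level was 117 and 6857 CPM, while marrow stromal markers reached 26388 and 36895 CPM against at most 110 CPM in any *Grem1*-lineage sum. Blood markers summed to 20323 and 30384 CPM on the *Lepr*-lineage plates despite the sort, and their part in the lineage results was not tested. *Creb5*, an articular marker that took no part in the division, was at 386 ± 77.8 CPM in articular-marker and 24.0 ± 17.2 CPM in Cnmd-side cells (SD, n = 8 plates).

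Chondroitin sulfate is a chain of alternating glucuronic acid and N-acetylgalactosamine carried on core proteins such as aggrecan, and its negative charge holds water in cartilage. The chain starts on a short linkage sugar that the kinase FAM20B phosphorylates. CSGALNACT1 and CSGALNACT2 add the first N-acetylgalactosamine, and CHSY1 with its partners CHPF and CHPF2 lengthens the chain. CHST11 and CHST12 then sulfate N-acetylgalactosamine at the 4-O position, and CHST3 at the 6-O position. CHST5 sulfates N-acetylglucosamine at the 6-O position, a reaction that belongs to keratan sulfate and related glycans rather than to chondroitin sulfate.

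The largest differences between the *Grem1*-lineage groups lay among sulfotransferases, and the start region of 3 of them is printed to show what sequence surrounds the start of genes that differed in opposite directions. Each window runs from 250 bases before to 50 after the annotated start (RefSeq, GRCm38.p6) and reads 5′ to 3′ on the gene's own strand. Capitals mark ACAAAG on either strand, letters within the motif bound by SOX-family factors.
*Chst3*, chr10:60219211-60219510, minus strand: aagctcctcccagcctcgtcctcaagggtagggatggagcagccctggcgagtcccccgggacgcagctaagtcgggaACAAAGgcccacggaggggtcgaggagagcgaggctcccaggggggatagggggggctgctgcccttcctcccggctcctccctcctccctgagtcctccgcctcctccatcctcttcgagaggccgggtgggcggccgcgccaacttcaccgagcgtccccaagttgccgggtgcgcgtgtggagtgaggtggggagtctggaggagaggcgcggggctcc
*Chst5*, chr8:111910150-111910449, minus strand: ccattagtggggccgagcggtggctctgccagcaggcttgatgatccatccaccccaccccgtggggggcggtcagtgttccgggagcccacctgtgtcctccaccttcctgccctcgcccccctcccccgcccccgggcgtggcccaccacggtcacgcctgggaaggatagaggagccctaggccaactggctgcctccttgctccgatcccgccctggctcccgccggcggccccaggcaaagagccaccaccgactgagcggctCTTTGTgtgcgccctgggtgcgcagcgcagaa
*Chst11*, chr10:82985247-82985546, plus strand: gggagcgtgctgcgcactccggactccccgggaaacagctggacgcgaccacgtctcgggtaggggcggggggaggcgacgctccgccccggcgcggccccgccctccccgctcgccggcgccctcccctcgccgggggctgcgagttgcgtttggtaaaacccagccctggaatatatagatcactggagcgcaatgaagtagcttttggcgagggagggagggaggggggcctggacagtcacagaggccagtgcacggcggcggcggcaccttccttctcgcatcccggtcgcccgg
The windows of *Chst3* and *Chst5* hold ACAAAG once each, the former starting 172 bases before and the latter at base 19 of the transcript, and the window of *Chst11* does not hold these letters. They occur in 2 of the 9 enzymes with a window, a share near the 18.7% of all 32851 windows in the table that hold them. The GC box GGGCGG, searched on either strand, occurs in all 3 and in 8 of the 9 enzymes with a window (*Csgalnact1* had no entry), against 35.7% of all windows. CG dinucleotides number 22 in *Chst3*, 21 in *Chst5* and 34 in *Chst11*, and the median of all windows is 7. A match describes letters only, and binding was not measured.

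Taken as a sum, the 10 enzymes gave 2056 ± 358 CPM (SD, n = 8 plates) in Cnmd-side cells, 1539.5 ± 201 in articular-marker cells and 578 ± 39.8 (n = 2) in *Lepr*-lineage cells. The articular-marker sum was the lower on 8 of 8 plates, although the ranges overlap (1289 to 1872 against 1512 to 2744 CPM). CPM are scaled to library totals alone. On that scale the median log2 fold change of all 1075 genes tested between the groups was -0.38, so a lower sum is not particular to these enzymes. The 6 chain and linkage enzymes were at 720 ± 121 CPM in articular-marker and 729 ± 143 CPM in Cnmd-side cells, within the spread between plates. The 4 sulfotransferases were at 819.6 ± 141 and 1327 ± 241 CPM, lower in articular-marker cells on 8 of 8 plates, with ranges that meet. The lower sums rest on *Chst11*, at a mean of 155 CPM in articular-marker against 810 CPM in Cnmd-side cells. Of the others, *Chst12* was at 464 against 499 CPM, and *Chst3* (89.3 against 12.6 CPM) and *Chst5* (111 against 4.98 CPM) were higher in articular-marker cells. Per 100 cells, the 10 enzymes gave 197 ± 23.8 UMIs in articular-marker and 488 ± 62.2 in Cnmd-side cells. The median articular-marker cell also held fewer UMIs of all genes (1217 against 2218.5), so a lower number per cell is not particular to these enzymes. In sums over cells, fewer cells with a transcript and less of it in each cell cannot be told apart.

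**Figure D1:**
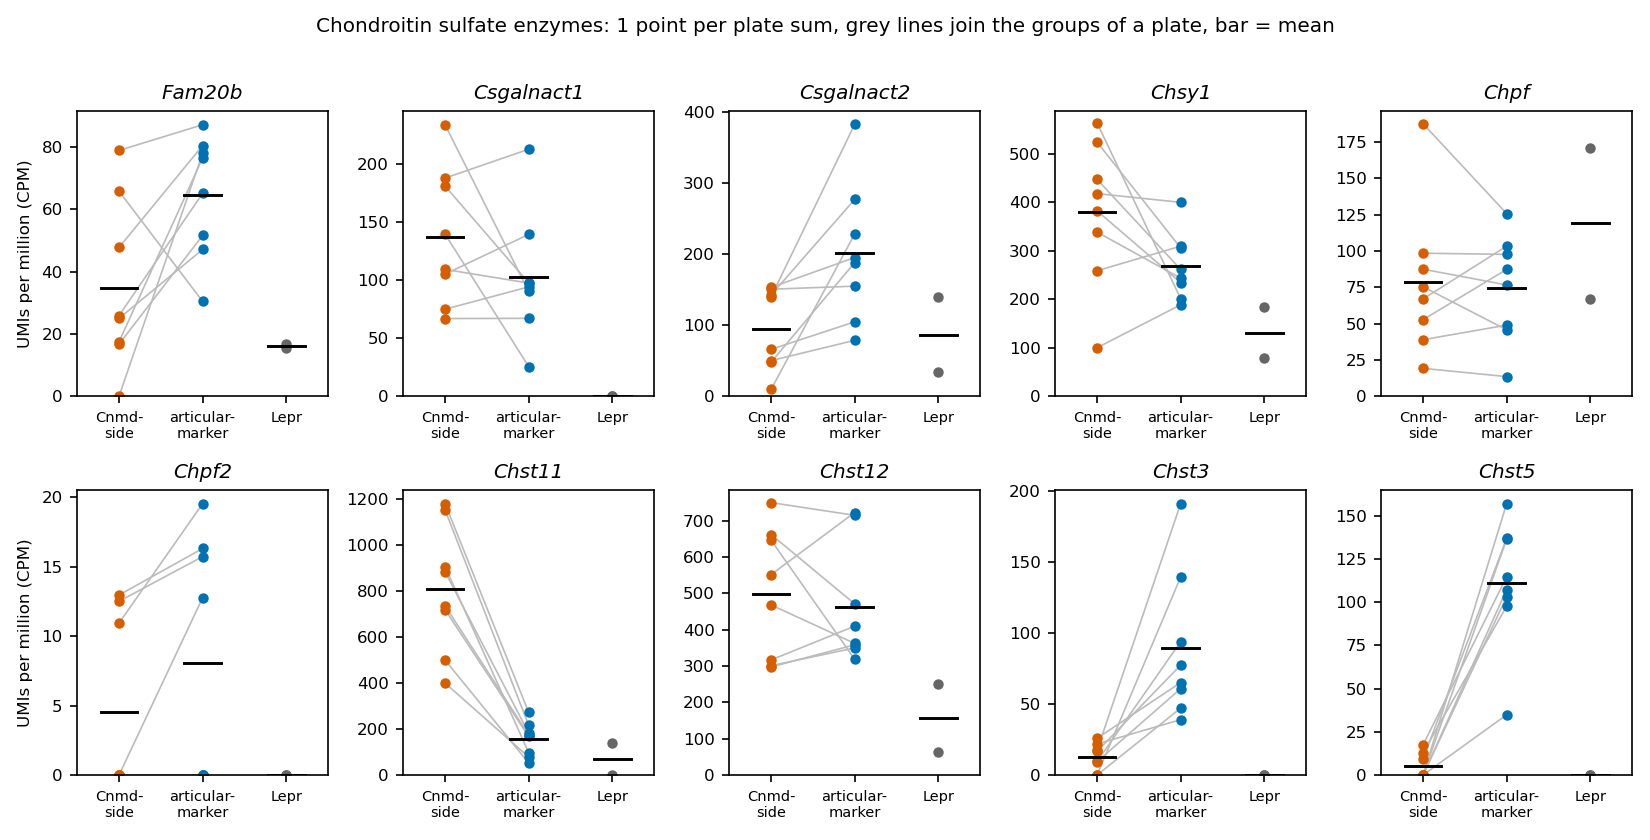
Level of each enzyme in CPM (y axis, linear and from 0, with a scale of its own in each panel) in Cnmd-side, articular-marker and Lepr-lineage cells. Each point is 1 plate sum, grey lines join both groups of a Grem1-lineage plate and black bars are means. *Chst11* falls from 400.0 to 1181 CPM in Cnmd-side sums to 52.3 to 273 CPM in articular-marker sums, while *Chst3* and *Chst5* lie higher on all 8 articular-marker plates.

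To compare the cell groups, UMIs were summed per plate and group and tested in edgeR by quasi-likelihood, with p-values adjusted over all genes tested (Benjamini-Hochberg), calling an adjusted p under 0.05. The main fit held no plate term, so its p-values did not use the pairing of the groups within a plate. Of 1075 genes that passed the filter on low counts, 444 were called (41.3%), 212 higher (19.7%) and 232 lower (21.6%) in articular-marker cells. With library totals in place of TMM scaling, 120 were higher and 416 lower, as the median of all genes moved by -0.35 on the log2 scale. Only 4 of the 10 enzymes passed the filter, and 2 of them were called, so the share called is near that of all genes. The planned fit without a filter tested all 10 enzymes among 12514 genes, and called 710 genes (5.67%), 385 higher (3.08%) and 325 lower (2.60%). Without TMM that split was 321 higher and 501 lower, and with DESeq2 size factors 466 higher and 229 lower. It called 4 of the 10 enzymes, *Csgalnact2*, *Chst3* and *Chst5* higher and *Chst11* lower in articular-marker cells. The median log2 fold change was 0.40 over the 10 enzymes and 0.01 over all genes. Adjusted p-values of the unfiltered fit are much smaller than those of the filtered one for the same gene (2.5e-17 against 2.4e-05 for *Chst11*), so the plate values are given beside them.

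*Chst11*, encoding a chondroitin 4-O-sulfotransferase, was the member called lower in articular-marker cells. It gave 528 UMIs in Cnmd-side cells, at 400.0 (lowest), 810.3 (median) and 1181 CPM (highest) over the plates, and 83 UMIs in articular-marker cells, at 52.3, 171 and 273 CPM. The groups did not overlap, and the level was lower on 8 of 8 plates. The log2 fold change was -2.06 (SE 0.31, edgeR adjusted p = 2.4e-05), and over pooled UMIs the Cnmd-side level was 5.16 times the articular-marker level (95% counting interval 4.09 to 6.59). Within each group, plates 1 and 2 held the lowest *Chst11* levels and plate 6 the highest. The gene lies on chromosome 10 (82985498-83195900, plus strand, GRCm38) with no exon shared with another annotated gene.

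*Chst12*, the other 4-O-sulfotransferase gene, did not move with it. Its levels were 298 to 750 CPM (median 510.3) in Cnmd-side and 319 to 723 CPM (median 386) in articular-marker cells, higher on 4 plates and lower on 4. The log2 fold change of 0.23 (SE 0.21, edgeR adjusted p = 0.39) changes sign without TMM (-0.14), and the groups overlap over most of their range. Among Cnmd-side sums, *Chst12* was at 662 and 750 CPM on plates 1 and 2, where *Chst11* was lowest, and at 317 CPM on plate 6, where *Chst11* was highest. Plate 7 held high levels of both, at 1154 CPM of *Chst11* and 647 CPM of *Chst12*, so the plates gave no single order. *Chst12* lies on chromosome 5 (140505550-140525724, plus strand).

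*Chst3*, the main 6-O-sulfotransferase gene of chondroitin sulfate, ran the other way. It gave 49 UMIs in articular-marker cells, at 39.0, 71.3 and 191 CPM (lowest, median, highest), and 8 UMIs in Cnmd-side cells, at 0, 13.1 and 25.9 CPM. Every articular-marker sum lay above every Cnmd-side sum, and plates 1 and 2 had none in Cnmd-side cells. The pooled ratio was 7.55 (95% counting interval 3.54 to 18.5), and without the filter the log2 fold change was 2.90 (SE 0.52, edgeR adjusted p = 2.7e-06). Per 100 cells it gave 11.6 ± 7.23 UMIs against 2.96 ± 2.16, with more UMIs per cell on 7 of 8 plates. *Chst3* is on chromosome 10 (60181532-60219260, minus strand).

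*Chst5*, the N-acetylglucosamine 6-O-sulfotransferase gene, had the largest log2 fold change of the 10 in the unfiltered fit. Articular-marker cells gave 59 UMIs, at 34.9, 111 and 157 CPM, and Cnmd-side cells gave 3 UMIs, 1 on each of plates 7, 8 and 9, and none on the other 5 plates. The pooled ratio of 24.2 has a counting interval of 7.90 to 121, as so few UMIs stand in the lower group. Without the filter its log2 fold change was 4.31 (SE 0.58, edgeR adjusted p = 1.8e-11), and it gave more UMIs per cell on 8 of 8 plates. It lies on chromosome 8 (111889136-111910447, minus strand).

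Levels that do not overlap between the groups were counted over the 2756 genes with at least 50 UMIs: 227 (8.24%) did not overlap, 77 higher (2.79%) and 150 lower (5.44%) in articular-marker cells. Of the 9 enzymes with as many UMIs over both groups together, 3 did not overlap, *Chst3* and *Chst5* higher and *Chst11* lower. *Chst3* (57 UMIs) and *Chst5* (62 UMIs) reached that number through articular-marker cells, which held 49 and 59 of them. The share among the enzymes is therefore not read against that of all genes. The median cell of the Cnmd-side group carried more UMIs, and each cell was therefore thinned to 796 UMIs, which left out 68 cells. After thinning, the unfiltered log2 fold changes were -2.02 for *Chst11* (edgeR adjusted p = 5.2e-09), 3.24 for *Chst3* (0.00052) and 3.85 for *Chst5* (7.2e-05). Transcripts of osteoblasts and blood also varied between sums. The 7 osteoblast markers summed to 1033 to 53486 CPM (median 2693) in articular-marker and 1004 to 26334 CPM (median 4988) in Cnmd-side cells, and the 8 blood markers to at most 5384 and 4575 CPM. Without the tenth of cells richest in these transcripts, the 3 unfiltered log2 fold changes were -2.21, 2.90 and 4.09, about as large as with them.

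The balance of the transcripts for 4-O and 6-O sulfation differed accordingly. Among UMIs of *Chst3*, *Chst11* and *Chst12*, the *Chst3* share was 12.6% ± 6.57 (SD, n = 8 plates) in articular-marker cells, from 5.41% on plate 6 to 26.3% on plate 7. In Cnmd-side cells it was 0.922% ± 0.712 (n = 8), from 0 to 2.11%. The lowest articular-marker plate lay above the highest Cnmd-side plate. Over the pooled UMIs of these 3 genes, *Chst11* took 62.2% of the 849 UMIs in Cnmd-side cells (95% exact binomial interval 58.8 to 65.5%) and 22.02% of the 377 UMIs in articular-marker cells (17.9 to 26.5%), while *Chst12* took 36.9% and 65.0%. In *Lepr*-lineage cells no *Chst3* UMI was seen among 28 (95% exact binomial interval 0 to 12.3%). These are shares of transcripts counted at unequal efficiency, and sulfation itself was not measured.

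**Figure D2:**
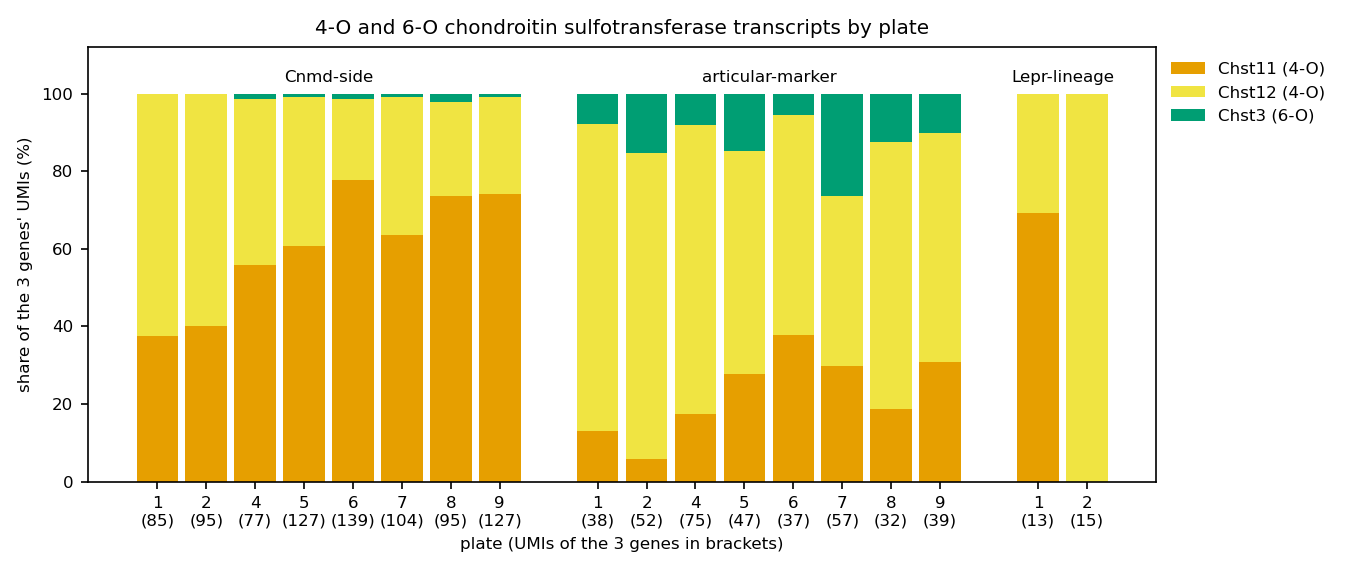
Share (y axis, %) of *Chst11*, *Chst12* and *Chst3* among the UMIs of these 3 genes on each plate, by cell group, with the number of UMIs in brackets under the plate number. *Chst3* takes 5.41 to 26.3% on the articular-marker plates and 0 to 2.11% on the Cnmd-side plates, and *Chst11* rather than *Chst12* holds the larger share on 6 of the 8 Cnmd-side plates and on none of the articular-marker plates.

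Among the enzymes that begin the chain, *Csgalnact2* was higher in articular-marker cells. It gave 109 UMIs there, at 78.6, 192 and 383 CPM, and 57 UMIs in Cnmd-side cells, at 9.41, 102.8 and 153 CPM. The level was higher on 8 of 8 plates and the ranges overlap, with a log2 fold change of 1.496 (SE 0.41, edgeR adjusted p = 0.0063). On plates 1, 2 and 4 alone the unfiltered value was 0.65 (adjusted p = 0.66), and on plates 5 to 9 alone it was 1.54 (0.00040). Counted per cell, *Csgalnact2* gave more UMIs on 4 plates and fewer on 4. *Csgalnact2* lies on chromosome 6 (118107452-118139140, minus strand).

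*Csgalnact1*, its paralog, gave 53 UMIs in articular-marker cells (25.5, 95.9 and 213 CPM) and 87 in Cnmd-side cells (66.9, 125 and 234 CPM). The groups overlap and each was higher on 4 plates. The unfiltered log2 fold change was -0.26 (SE 0.32, edgeR adjusted p = 0.62). *Csgalnact1* spans chromosome 8 (68356781-68735146, minus strand).

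The polymerising enzymes did not pass the test between the groups. *Chsy1* was at 189 to 400.2 CPM (median 253) in articular-marker and 99.99 to 564 CPM (median 400.4) in Cnmd-side cells, lower on 6 of 8 plates, with a log2 fold change of -0.18 (SE 0.26, edgeR adjusted p = 0.61). On plates 1, 2 and 4 alone its value was 0.22 (0.77). Its exons overlap those of *Gm26827* on the other strand, and the strand setting of the counting is not given in the sources used here, so reads of both cannot be told apart. *Chpf* was at 13.4 to 126 CPM in articular-marker and 19.1 to 187 CPM in Cnmd-side cells (unfiltered log2 fold change 0.10, SE 0.38, edgeR adjusted p = 0.89), a value that changes sign on plates 5 to 9 alone (-0.11) and in the unfiltered fit without TMM (-0.06). *Chpf2* gave 4 UMIs in articular-marker and 3 in Cnmd-side cells, too few for a comparison, and it shares exon positions with *Smarcd3* on the other strand.

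*Fam20b*, the linkage kinase gene, gave 34 UMIs in articular-marker cells (30.4, 70.9 and 87.2 CPM) and 24 in Cnmd-side cells (0, 25.5 and 79.0 CPM). The level was higher on 7 of 8 plates, and the unfiltered log2 fold change of 0.98 (SE 0.47) did not pass (edgeR adjusted p = 0.26). Its exons overlap those of *Gm19918* on the other strand.

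**Figure D3:**
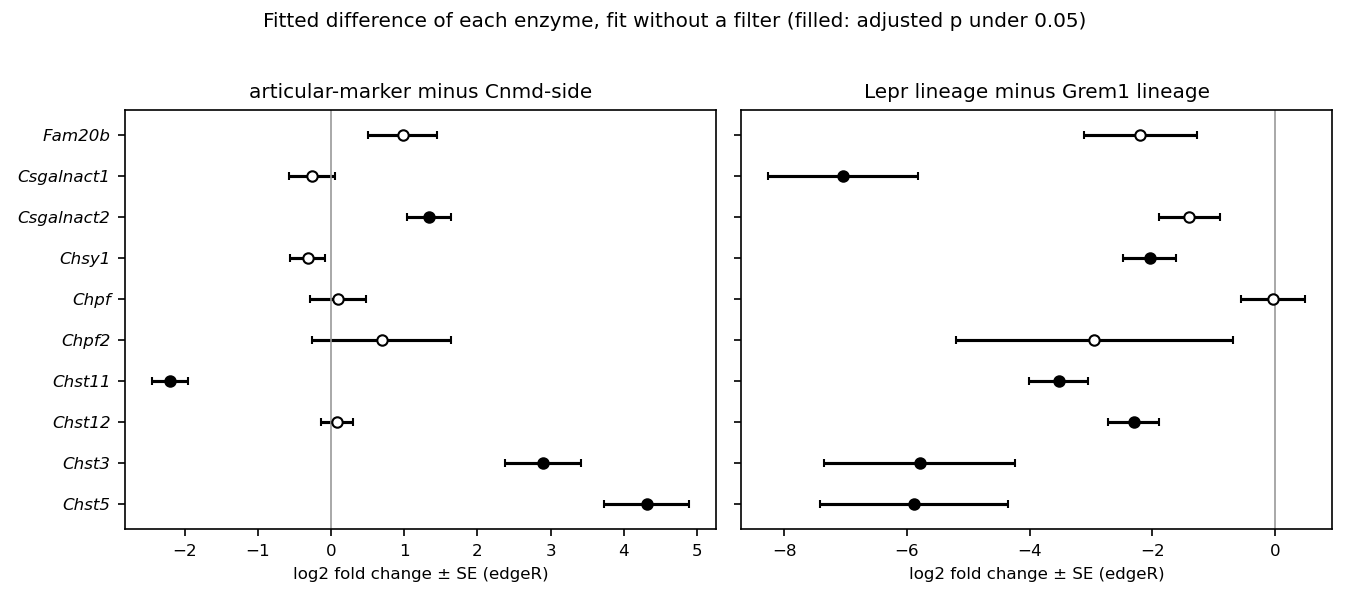
Log2 fold change (x axis) of each enzyme with its approximate standard error, from the edgeR fits without a filter, for articular-marker minus Cnmd-side cells (left) and Lepr minus Grem1 lineage (right). Filled points have an adjusted p under 0.05. On the left *Csgalnact2*, *Chst3* and *Chst5* are called to the right of 0 and *Chst11* to the left. On the right the values of *Csgalnact1*, *Chpf2*, *Chst3* and *Chst5* rest on 0 Lepr-lineage UMIs and measure no fold.

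Per cell, transcripts of these enzymes were sparse. No cell carried more than 9 UMIs of *Chst11*, 8 of *Chsy1* or 7 of *Chst12*, and none more than 3 of *Chst3* or *Chst5*. With every cell thinned to 529 UMIs (413 articular-marker, 269 Cnmd-side and 77 *Lepr*-lineage cells left), a *Chst11* UMI was seen in 30.1% of Cnmd-side cells (95% exact interval 24.7 to 36.0%), 8.23% of articular-marker cells (5.77 to 11.3%) and 5.19% of *Lepr*-lineage cells (1.43 to 12.8%). The unthinned shares were 75.9%, 17.1% and 3.75% at median depths of 2218.5, 1217 and 505 UMIs. *Chst3* was seen in 6.78% of thinned articular-marker cells (4.55 to 9.65%) and 0.372% of Cnmd-side cells (0.00941 to 2.05%), and *Chst5* in 5.57% (3.56 to 8.24%) and in 0 of 269 (0 to 1.36%). For *Chst12* the thinned shares were 21.3% (17.5 to 25.6%) and 23.05% (18.2 to 28.5%), whose intervals overlap. Intervals and limits cover counting error only, and a share of cells with a UMI is not a share of cells expressing the gene. Among unthinned articular-marker cells, 9 of the 42 with a *Chst3* UMI also had a *Chst11* UMI and 5 also had a *Chst5* UMI, at a depth that leaves most transcripts of a cell unseen.

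**Figure D4:**
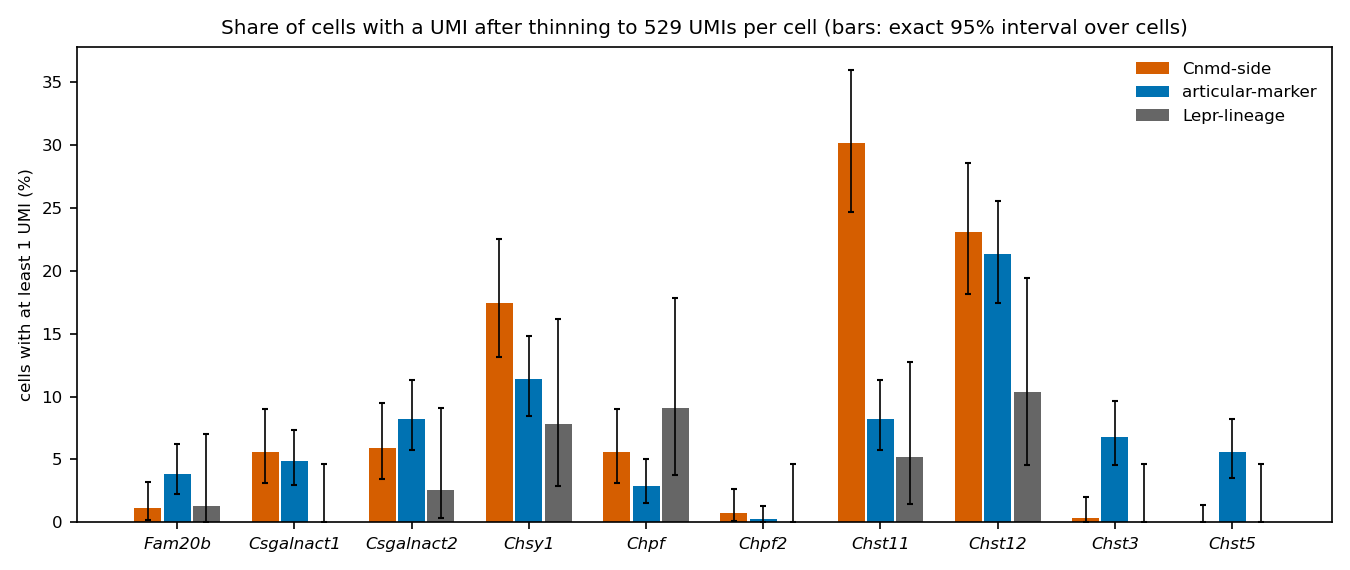
Share of cells (y axis, %) with at least 1 UMI of each enzyme after every cell was thinned to 529 UMIs, in Cnmd-side (269), articular-marker (413) and Lepr-lineage (77) cells. Error bars are exact 95% binomial intervals over cells and cover counting error only. *Chst11* is seen in 30.1% of Cnmd-side against 8.23% of articular-marker cells, *Chst3* in 0.372% against 6.78%, and *Chst5* in 0 of 269 against 5.57%.

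To compare the lineages, UMIs of all kept cells were summed per plate. edgeR called 853 of 2944 genes (29.0%), 495 of them lower in the *Lepr* lineage (16.8%) and 358 higher. Without TMM the split was 773 higher and 288 lower, since the median of all genes moved by 0.56 on the log2 scale, and the same 4 enzymes stayed past the threshold. Of the 6 enzymes that passed the filter, *Csgalnact1*, *Chsy1*, *Chst11* and *Chst12* were lower in the *Lepr* lineage, and *Csgalnact2* and *Chpf* did not pass. *Csgalnact1* had 0 *Lepr*-lineage UMIs and passed the filter through the *Grem1* lineage alone. The share called among the enzymes is therefore not read against that of all genes. Without a filter, 1081 of 13283 genes were called (8.14%), 629 lower (4.74%) and 452 higher (1000 higher and 306 lower without TMM), and *Chst3* and *Chst5* were also lower. The median log2 fold change was -2.62 over the 10 enzymes and -0.79 over all genes in that fit. The values of *Csgalnact1*, *Chpf2*, *Chst3* and *Chst5* were fitted to 0 *Lepr*-lineage UMIs, so the median over the enzymes measures no fold.

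No *Csgalnact1* UMI was counted in *Lepr*-lineage cells, against 140 UMIs at 67.0, 113 and 198 CPM on the *Grem1*-lineage plates. Taking 3 counts over both *Lepr*-lineage plates as the limit, the *Grem1*-lineage level was at least 4.91-fold higher (edgeR adjusted p = 0.00086). For *Chst3* (57 UMIs in the *Grem1* lineage, 20.9 to 118 CPM) and *Chst5* (62 UMIs, 15.005 to 73.7 CPM), which also had no *Lepr*-lineage UMI, it was at least 2.00-fold and at least 2.17-fold higher. Their unfiltered calls (adjusted p = 0.0043 and 0.0026) were lost without *Lepr*-lineage plate 1 (0.0913 and 0.0701) and without plate 2 (0.0896 and 0.0695).

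*Chst11* gave 9 UMIs on *Lepr*-lineage plate 1 (140 CPM) and none on plate 2, against 258 to 855 CPM on the *Grem1*-lineage plates. Both values lay below every *Grem1*-lineage plate, with a log2 fold change of -3.32 (SE 0.73, edgeR adjusted p = 0.0029). Without plate 2 it was -2.41 (0.041), and without plate 1, -9.21 (0.0018), the latter fitted to 0 UMIs. On plates 1 and 2 of each lineage alone it was -2.35 with the plate number as a block (0.012) and -2.22 without (0.093). *Chst12* was at 62.2 and 250.1 CPM in the *Lepr* lineage against 319.8 to 735 CPM, also without overlap, with a log2 fold change of -2.08 (SE 0.44, adjusted p = 0.0022). Without *Lepr*-lineage plate 1 the *Chst12* value was -1.49 (0.039), and without plate 2 it was -3.41 (0.0018). Thus the plates of the *Lepr* lineage differed in which 4-O-sulfotransferase transcript they held, with 9 and 4 UMIs of *Chst11* and *Chst12* on plate 1 and 0 and 15 on plate 2.

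*Chsy1* was at 77.7 and 183 CPM in the *Lepr* lineage and 139 to 413 CPM in the *Grem1* lineage, ranges that overlap, with a log2 fold change of -1.83 (SE 0.47, edgeR adjusted p = 0.0084). The call was lost without *Lepr*-lineage plate 1 (-1.43, 0.0954) and on plates 1 and 2 of each lineage alone (adjusted p = 0.138 with a block, 0.222 without). *Csgalnact2* was at 140 and 33.3 CPM against 62.7 to 280 CPM (log2 fold change -1.18, SE 0.68, adjusted p = 0.21). Its value was -2.65 without *Lepr*-lineage plate 1 (0.11) and -0.56 without plate 2 (0.65), and 4 of 12 alternatives of the unfiltered fit called *Csgalnact2* lower (lowest adjusted p = 0.013). *Chpf*, the polymerase partner gene, was at 171 and 66.7 CPM against 16.8 to 160.1 CPM (0.19, SE 0.60, adjusted p = 0.84), and turned to -0.75 without plate 1. *Fam20b* had 1 UMI on each *Lepr*-lineage plate (unfiltered log2 fold change -2.20, SE 0.92, adjusted p = 0.14), and *Chpf2* had none. The 2 *Lepr*-lineage plates held 39 and 33 UMIs of the 10 enzymes, which limits what could be detected there.

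Other genes of the pathway were read from lists whose members were not picked for how they moved. Of 5 further enzymes of chain synthesis and sulfation, 3 had UMIs in *Grem1*-lineage sums, and *Chst15*, which adds a second sulfate to 4-O-sulfated chains, was lower in articular-marker cells (5 against 39 UMIs, unfiltered log2 fold change -2.27, SE 0.64, edgeR adjusted p = 0.011). Of 3 dermatan sulfate genes tested without a filter 1 was called, *Dse*, the epimerase that turns chondroitin into dermatan (1.58, SE 0.28, edgeR adjusted p = 8.9e-07). It was at 288 ± 182 CPM in articular-marker and 106 ± 65.0 CPM in Cnmd-side cells. With the filter, which *Dse* alone of the 3 passed, its value was 1.73 (SE 0.40, edgeR adjusted p = 0.0018). Of 6 keratan sulfate genes tested, *Chst1*, which sulfates galactose, was higher (63 against 12 UMIs, unfiltered 2.75, SE 0.45, adjusted p = 1.3e-07) and *B4galt1* lower (89 against 228 UMIs, unfiltered -0.83, adjusted p = 0.023, but -0.69 and 0.083 with the filter). The 3 linkage region and 4 breakdown genes with UMIs did not pass in edgeR. Of 6 heparan sulfate genes tested without a filter, *Extl1* was lower (-1.43, adjusted p = 0.018), and among precursor genes *Gfpt2* was higher in the filtered fit alone (0.52, adjusted p = 0.022, against 0.37 and 0.37 without the filter).

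Core proteins that carry these chains also differed. Of the 7 tested with the filter, *Dcn*, encoding decorin, was higher in articular-marker cells at 19620.3 ± 2198 against 1922 ± 533 CPM (log2 fold change 3.68, SE 0.17, edgeR adjusted p = 3.0e-12). Lower were *Acan* (-0.999, 0.00054), *Bgn* (-0.78, 0.0017), *Epyc* (-4.05, 4.2e-09) and *Col9a2* (-1.85, 1.5e-08), each given with its adjusted p, while *Cspg4* and *3110079O15Rik* did not pass. In the *Lepr* lineage 6 of 7 core proteins were lower and *Bgn* was at 2549 ± 1252 CPM (-0.30, adjusted p = 0.46). Of the other lists tested with the filter, *B4galt7*, *Chst1*, *Extl1*, *Cemip* and *Gfpt2* were lower in the *Lepr* lineage, and none was higher.

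The genes whose level followed the summed enzymes most closely were sought over the 16 *Grem1*-lineage sums and 2 *Lepr*-lineage sums, among 2598 genes with a mean of at least 50 CPM. By Pearson's correlation of log2(CPM + 1), the 5 closest were *Cbr2* (0.942), *Col11a2* (0.936), *Col9a1* (0.934), *Fxyd2* (0.927) and *Col6a3* (0.921). Over the 16 *Grem1*-lineage sums alone these were 0.624 to 0.759. The sums share plates and fall into groups, so the values describe these sums and no test was made.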

How the data were processed

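The authors deposited whole-number UMI counts for every gene in every cell, not normalised, 1 table per lineage. The submitters' processing notes name UMI-tools, STAR, featureCounts, SAMtools, Seurat and mm10. Their versions and settings, including strand and annotation, are not given in the sources used here. Of the *Grem1*-lineage table, 1 incomplete gene row was left out, and its 29183 complete rows are all listed for the *Lepr* lineage too. The *Lepr*-lineage table holds 50508 complete rows, and those not among the shared ones took no part in the comparisons. No column of the tables was left unused.

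The 10 genes, the gene lists and the tests were chosen with earlier results of these data known. All 10 genes are named, with pathway genes that passed either fit, apart from a result not reported here, and the 5 genes of closest likeness. *3110079O15Rik* and *Cspg4* between the cell groups and *Bgn* between the lineages were named after their values were seen. Wells with at least 350 detected genes, counted over the genes listed for their own lineage, were kept. Each *Grem1*-lineage cell was placed by whether its *Clu*, *Cilp* and *1500015O10Rik* UMIs together exceeded its *Cnmd* UMIs. This left 58 cells within 2 times of equality, 4 of them with equal counts. Doublets were not called beyond the sort on single cells. Counts were summed per plate and group in Python 3.11.15 and tested in R 4.3.3 with edgeR 4.0.16 (TMM, filterByExpr with defaults, glmQLFit, glmQLFTest), with DESeq2 1.42.0 as an alternative. An approximate standard error was taken as |log2 fold change| over the root of the F statistic. CPM are deposited UMI counts per 1000000 UMIs of the shared genes, without TMM, and are not scaled to transcript length, so levels are not ranked between genes. Gene positions were taken from GENCODE for GRCm38, where all 10 enzymes and 28372 of 29183 symbols were found.

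The fits were tested on simulated counts. The fit without a filter was planned, and its own alternatives were added after the data were seen, as were library totals in place of TMM, the removal of cells rich in osteoblast or blood transcripts and the count of groups that do not overlap. Sums of the same plate deviated together from their group means (correlation 0.187 to 0.454, above 0.1 on 8 of 8 plates, mean 0.301 against -0.0430 for different plates), so the plate pairs the groups. *Lepr*- and *Grem1*-lineage plates of the same number share only a number (0.0571).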

Additional observations from a re-analysis of the deposited data

Results flagged for a closer look

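Among the 8 Cnmd-side sums, *Chpf* on plate 1 stood apart from the others, at 187 CPM (15 UMIs) against 98.4 CPM on the next plate. Chance alone sets apart about 1 in 20 groups of this size, and 22 groups were searched, so about 1 such plate is expected. The articular-marker sum of the same plate was also the highest of its group, at 126 CPM (8 UMIs).

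Outside the cells compared, the 84 *Grem1*-lineage wells with too few detected genes held 73 UMIs of the 10 enzymes, which is 1834 CPM against 1809 CPM in the kept cells. These wells had a median of 501.5 UMIs, and the floor of 3 counts over them is 75.4 CPM.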

How the results depend on the processing

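*Chst11* was lower in articular-marker cells and past the threshold under each of 21 alternatives of the filtered fit (log2 fold change -2.40 to -1.95, adjusted p 2.5e-17 to 0.0054), and *Csgalnact2* was higher under each of the 17 that tested it (1.12 to 1.83, adjusted p 0.00038 to 0.020). With the plate as a replicate block, 515 genes in place of 444 were called and the blocked fit changed no call of an enzyme. In the unfiltered fit, *Chst3* (2.51 to 3.96) and *Chst5* (3.85 to 5.94) were past the threshold under each of 18 alternatives, and *Csgalnact2* under 17 of them. Filtered calls between the groups numbered 385 to 441 with 1 plate left out, 710 without a filter (4 enzymes in place of 2), 181 after thinning and 239 on plates 1, 2 and 4 alone. Only 1 enzyme, *Chst11*, was called after thinning, on those plates alone, with the 20 most abundant genes left out and without cells rich in osteoblast or blood transcripts, where *Csgalnact2* did not reach the filter. Unfiltered calls numbered 351 after thinning and 318 on plates 1, 2 and 4 alone.

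Between the lineages, calls ranged from 529 to 850 with 1 plate left out (529 without *Lepr*-lineage plate 2), and without a filter from 702 to 1071. On plates 1 and 2 of each lineage, 489 genes and 2 enzymes were called with a replicate block, and 451 genes and 1 enzyme without a block, from 4 plates. With the 350 detected genes counted over the shared genes in both lineages, 863 of 2943 genes and 4 enzymes were called. The summed enzymes of the *Lepr* lineage were at 858 CPM after thinning. Without thinning, 80.0% of articular-marker and 95.9% of Cnmd-side cells had a UMI of any of the 10 enzymes, against 53.5% and 65.8% with it. The *Chst3* share among the 3 sulfotransferases stayed within 1 SD under each of 11 alternatives, from 10.6 to 17.7% in articular-marker and 0.658 to 1.05% in Cnmd-side cells. The cause of these changes was not tested, other than the smaller number of plates, cells or UMIs. Counts of 3 to 8 UMIs, as for *Chpf2* and for *Chst3* or *Chst5* in Cnmd-side cells, limit the precision of those ratios.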
